A study of Mus musculus with 24 samples.

Results

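Wild-type (WT) Th2 cells were compared with unstimulated WT bone marrow-derived macrophages (BMDMs) by RNA-seq of polyadenylated RNA. The comparison used 8 of the 24 libraries of the series, chosen by their labels: 4 of WT Th2 cells, which carry the name of the Tdg cohort, and 4 of BMDMs taken at 0 h, before any stimulus, of which 2 came from the WT mice of the Tdg cohort and 2 from the WT mice of the Tet cohort. All were C57BL/6 mouse cells of wild-type genotype. The controls were treated with tamoxifen like the inducible knockouts of the study, and whether they carried floxed alleles or Cre was not given. Naïve CD4+ T cells, which per the study's methods were enriched with a kit and then sorted by flow cytometry as CD25-, CD62L high and CD44 low, had been stimulated through CD3 and CD28 with added IL-4 and an antibody to IFN-γ for 2 days, and then, off the antibodies, expanded in IL-2 (for 3 days per the labels and 4 days per the methods). Bone marrow had been grown in L929-conditioned medium, a source of M-CSF, with M-CSF added after 4 days, and the adherent cells were kept. No sort at the end of either culture is given in the sources used here, and each library is a bulk measurement, in which fewer cells of a type and less RNA per cell cannot be told apart.

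Th2 cells are CD4+ helper T cells that depend on the transcription factor GATA3 and secrete IL-4, IL-5 and IL-13. Macrophages depend on the transcription factor PU.1 and on signalling through the M-CSF receptor, and are rich in lysosomes, scavenger receptors and complement components. In dividing cells, DNMT1 and its partner UHRF1 copy DNA methylation onto the new strand, whereas TET enzymes oxidise 5-methylcytosine, and the oxidised base can be lost by dilution at replication or by excision with the glycosylase TDG. The study set T cells that divide during differentiation against macrophages that do not divide during their response, so the levels of proliferation genes and of the methylation machinery in expanding Th2 cells and in macrophages before their stimulus are of use beside its methylation data.

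The 8 libraries held between 4982950 and 26657729 read pairs assigned to genes. Th2 replicates 3 and 4 differed by little more than counting noise (mean chi-square per gene of 1.51, against 41.7 to 218 for the other Th2 pairs), and were counted as 1 sample, so that n = 3 for Th2 cells and n = 4 for BMDMs. Replicates 1 and 2 formed another set of Th2 libraries, which stood apart from replicates 3-4. The second BMDM library of the Tdg cohort was the shallowest, had the largest share of reads that did not align (9.02%), and read genes of up to 2863 exon bases high (median log2 ratio to the other BMDM libraries of 0.42) and those above 4968 low (-0.41). Reads that aligned to several places made up 30.9 to 32.1% of the Th2 libraries and 16.6 to 25.8% of the BMDM libraries. Cell type, tissue of origin and culture change together here and cannot be told apart, and the labels do not say which samples came from separate mice, so p-values measure the spread between these samples.

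The marker genes matched the labels in all 8 libraries. Cd3e (chr9:44806826-44817673, mm9), a signalling chain of the T cell receptor, had normalised counts of 1590, 1298, 2651 and 2595 in Th2 replicates 1 to 4 and 0 in each of the 4 BMDM libraries. Gata3 (chr2:9778705-9811661) was read at 4876, 3927, 4963 and 4825 in Th2 cells and 0 in every BMDM library, and Il4 (chr11:53416484-53432171) at 1049, 954.9, 447.4 and 428.4 against 0. Against a floor of 3 counts over the 4 BMDM libraries these values were at least 2300-fold, 5700-fold and 1020-fold higher in Th2 cells.

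The macrophage markers gave the opposite picture. Csf1r (chr18:61265226-61291803), the M-CSF receptor, was at 0 in the 4 Th2 libraries and at 26530, 16100, 19420 and 19640 in the BMDM libraries (Tdg cohort replicates 1 and 2, then Tet cohort replicates 1 and 2), at least 39700-fold higher. Cd68 (chr11:69477715-69479655), a glycoprotein of the lysosomal membrane, was low but not absent in Th2 cells at 26.41, 21.1, 30.26 and 37.82, against 27620, 23650, 25430 and 28340, a 966-fold difference. Spi1, listed as Sfpi1 (chr2:90922547-90955913) and coding for PU.1, had 1 count in all Th2 libraries and 4348, 5346, 3151 and 3583 in the BMDM libraries. Its ratio was 22000, with an exact 95% interval of 3940 to 867000 for counting error only. No library of either type overlapped the other for any of these 6 genes. Such separation was common: of 13944 tested genes, 4356 were higher in Th2 cells and 3505 higher in BMDMs without overlap.

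**Figure D1:**
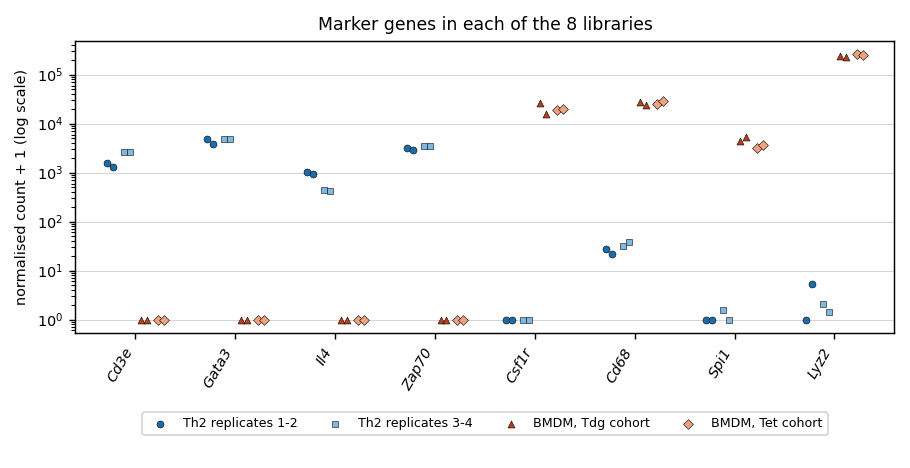
Normalised counts plus 1 (log axis) of 8 lineage genes in the 4 Th2 and 4 BMDM libraries, 1 point per library. Cd3e, Gata3, Il4 and Zap70 sit at 0 counts in all BMDM libraries, and Csf1r, Cd68, Spi1 and Lyz2 are far higher there than in Th2 cells.

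Markers of other cells were scarce, with exceptions in both types. Summed over the B cell list, the libraries held 1 to 5 CPM (counts scaled to the same total in every library) in Th2 cells and 1 to 4 in BMDMs, and no haemoglobin or other erythroid gene but Klf1 was read. Cd8b1, a chain of the CD8 co-receptor, was at 169.1, 163.1, 168 and 182.3 in Th2 cells and 0 in BMDMs, while Cd8a was at 0, 0, 26.48 and 23.09. Gzmb, the cytotoxic protease granzyme B, which activated CD4+ cells can also make, reached 18280, 17760, 25620 and 25530. The CD8 and NK cell list summed to 1623 to 2428 CPM in Th2 cells, where it rested mostly on Gzmb, and 0 to 1 in BMDMs. Of its 4 tested genes, 3 were higher in Th2 cells, and 1 of these, Prf1, lost its call in 4 other settings. In BMDMs the neutrophil and granulocyte precursor list, 6 of whose 7 tested genes were higher there, summed to 30 to 160 CPM, against 0 in Th2 cells. Its gene for myeloperoxidase, Mpo, was at 641.4, 91.96, 65.68 and 220.9 in the 4 BMDM libraries and S100a9, a calprotectin chain, at 660.9, 107.3, 64.78 and 184, highest in the first Tdg cohort library for both. The fibroblast list, in which Dcn was at 19.55, 177.8, 174.5 and 136, summed to 2 to 14 CPM in BMDMs and 1 to 4 in Th2 cells. Of its 4 tested genes, 2 were higher in BMDMs and 1 in Th2 cells, beside 25.9% and 29.1% of all genes. The dendritic cell list summed to 6 to 75 CPM in Th2 cells, where it rested on Batf3 at 746.2, 773.5, 56.73 and 53.75, and 1 to 7 in BMDMs. None of the 4 tested mast cell and basophil genes was called by DESeq2, and that list summed to at most 3 CPM. The Th2 cultures were begun from sorted naïve CD4+ cells, and their purity at harvest is not given in the sources used here. The part of other cell types in the differences below was not tested.

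Over all genes, 4053 of 13944 tested (29.1%) were higher in Th2 cells and 3606 (25.9%) higher in BMDMs at a DESeq2 adjusted p under 0.05, with a median log2 difference of 0.13 (Th2 over BMDM). Scaling by total counts in place of median ratios moved that median by 0.365 and the split to 5309 higher and 2847 lower. A difference was taken to hold where it was called, was at least 1 on the log2 scale in the same direction in each of the 4 contrasts of a Th2 set (replicates 1-2 or 3-4) with a BMDM cohort (Tdg or Tet), and the 4 Th2 libraries did not overlap the 4 BMDM libraries. This left 2544 genes higher in Th2 cells (18.2% of those tested) and 2232 higher in BMDMs (16.0%). Among the tested genes, 749 had no count in any BMDM library and 460 none in any Th2 library. Th2 replicates 1-2 against the Tdg cohort alone, whose libraries carry neighbouring numbers in the labels, called 5396 genes, 2627 higher and 2769 lower in Th2 cells.

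The genes read most, by normalised count, which is not corrected for gene length, were taken among those with at least a 32-fold difference that held. In Th2 cells these began with Il2ra, the α chain of the IL-2 receptor, at 35380, 36300, 15640 and 15290 against 11.73, 0, 2.699 and 1.943, and Gzmb, followed by Myo6, Satb1, Scd2, Thy1, Hmgb2, Il2rb, Ets1 and Itgb3. In BMDMs the gene for lysozyme, Lyz2, was at 239200, 228600, 264000 and 250200 against 0, 4.219, 1.081 and 0.3981 in Th2 cells, and the cathepsin gene Ctsb at 253400, 230900, 259400 and 263200 against 2834, 3168, 2663 and 2722. Fth1 (ferritin heavy chain, 48.1-fold), Ctsd, Saa3, Psap, Ctss, Gpnmb, Apoe (2560-fold) and Ctsl completed the 10. Fth1 and Hmgb2 have near-identical copies in the genome and their counts are uncertain.

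Genes of the T cell receptor and its signalling were higher in Th2 cells. All 19 members tested of the 20 on the list were higher in Th2 cells, and all 19 differences held, with a median log2 difference of 11.15 (11.05 with genes absent from BMDMs set at their floor) against 0.13 over all genes. Zap70, the kinase recruited to the receptor, was at 3194, 2949, 3460 and 3521 in Th2 cells and 0 in BMDMs, at least 4010-fold higher. Thy1, a surface glycoprotein of T cells, had the largest difference of the list, at 11390, 11910, 13850 and 13830, against 1 count in all BMDM libraries. The smallest difference of the list was that of Lcp2, the adaptor SLP-76, which was 2.58-fold higher in Th2 cells (log2 1.37, SE 0.17, DESeq2 adjusted p = 1e-14), and Cd4 was also read in BMDMs, at 117.3, 187, 235.7 and 368.6 against 3777, 4121, 5901 and 5725 in Th2 cells.

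Of 11 T cell transcription factors, 9 were higher in Th2 cells and all 9 held, with none lower. Bcl11b, which keeps T cell identity, was at 1487, 994.3, 2205 and 2301 against 0 in BMDMs, at least 1970-fold higher. Satb1, a chromatin organiser, was at 13790, 12470, 13200 and 13300 against 11.73, 0, 0 and 1.943. Runx1, which serves both lineages, was at 693.4, 616, 1097 and 1089 in Th2 cells and between 971.7 and 1421 in BMDMs and did not pass the test (log2 -0.57, DESeq2 adjusted p = 0.0875).

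Of 18 tested genes of the Th2 programme, 16 were higher in Th2 cells (15 held) and 2 were higher in BMDMs (both held). Besides Il4 and Gata3, the cytokine genes Il5 and Il13 were at 0 in every BMDM library and at 224.5, 301, 34.58 and 38.62 and 464.9, 444.4, 79.97 and 74.85 in Th2 replicates 1 to 4, at least 234-fold and 411-fold higher. Il24, an IL-10 family cytokine gene, was at 6704, 7299, 681.4 and 754.9 against 0. All 3 were lower in replicates 3-4 than in replicates 1-2, as was Il10 at 8317, 8387, 2860 and 2766, which BMDMs also held at 164.3, 177.8, 133.2 and 155.5 (41.3-fold higher in Th2 cells). Between the Th2 sets, where DESeq2 called 9.88% of 11879 genes tested in either direction, 7 of the 19 tested Th2 programme genes were called and all 7 were lower in replicates 3-4. The number called over all genes, 1174, ran from 233 without Th2 replicate 2 to 3608 without the second Tdg cohort library. edgeR called 4, of which Il24 (log2 -3.27, edgeR adjusted p = 0.0322), Il10 (-1.57, 0.0341) and Bhlhe41 were lower and Il1rl1 higher. Il4 itself differed by log2 -1.20 and was called by DESeq2 (adjusted p = 0.0384) and not by edgeR (adjusted p = 0.126). Gata3 was called by neither (log2 0.15).

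The 2 genes of the programme higher in BMDMs were transcription factor genes that myeloid cells use as well. Maf, an activator of Il4 in T cells, was at 2174, 1823, 1262 and 1334 in Th2 cells and 4096, 8911, 7472 and 6593 in BMDMs (log2 -1.93, SE 0.33, DESeq2 adjusted p = 2.06e-08). Bhlhe41 was at 59.43, 63.29, 9.186 and 11.55 against 1339, 1027, 3202 and 3070, with no overlap. By contrast Irf4, needed for Th2 differentiation, was at 9001, 9313, 1705 and 1726 against 26.07, 0, 7.197 and 25.91.

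Genes of the other helper lineages were also read. Of 15 tested, 9 were higher in Th2 cells (29.1% over all genes) and 8 of these held (18.2% over all genes). The list median was 4.66 (2.83 with genes absent from BMDMs at their floor). With Th2 replicates 1 and 2 left out, 2 of 8 still tested were called higher. Tbx21, which drives Th1 cells, was at 105.7, 91.41, 38.36 and 41.8 and Foxp3, the factor of regulatory T cells, at 47.55, 35.16, 30.8 and 36.23. Ifng, the Th1 cytokine gene, had fewer than 10 counts over all 8 libraries and did not pass the test. Il21, a cytokine gene of follicular helper cells, was at 105.7, 149.1, 3.782 and 9.555 and 0 in BMDMs, while Bcl6, their transcription factor, was higher in BMDMs at 1386, 1796, 1796 and 1871 against 25.09, 9.844, 43.77 and 52.55.

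Receptors for IL-2 and related cytokines and homing receptors went mostly with Th2 cells. Of 18 tested, 13 were higher there (12 held) and 1 was higher in BMDMs without holding, beside 29.1% and 25.9% of all genes. Il2rb, the β chain of the IL-2 receptor, was at 10140, 10960, 7438 and 7520 against 2.607, 0, 1.799 and 0, whereas Il2rg, the γ chain shared by several cytokine receptors, was at 5336, 5516, 6776 and 6837 and 4820, 4567, 5371 and 5916 and did not pass the test (log2 0.20, DESeq2 adjusted p = 0.421). The co-stimulatory receptor genes Icos (2210, 2453, 938 and 926.5), Ctla4 (1190, 1070, 462 and 539.5) and Tnfrsf18 (7427, 8182, 4792 and 4989) had at most 1 count in BMDMs. Of the homing receptors, S1pr1 varied between the Th2 sets and Ccr7 between the BMDM cohorts. S1pr1, the receptor for lymph node exit, was at 330.2, 389.6, 4273 and 4254 in Th2 cells and at 1474, 882.8, 1845 and 1897 in BMDMs, so that BMDMs lay between the Th2 sets. Ccr7, the lymph node entry receptor, was at 1877, 2035, 1250 and 1278 in Th2 cells and at 161.7, 177.8, 2.699 and 3.239 in BMDMs, where it differed between cohorts by log2 -5.81 (Tet over Tdg, edgeR adjusted p = 0.00416).

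On the macrophage side, 25 of the 26 identity genes tested were higher in BMDMs, and all 25 differences held (median log2 -11.18, or -11.02 with genes absent from Th2 cells at their floor). Lpl, lipoprotein lipase, was at 25840, 52890, 14130 and 11490 and absent from Th2 cells, at least 50700-fold higher. The exception was Ccr2, the monocyte chemokine receptor. It was at 1945, 1428, 179 and 167.1 in BMDMs and at 29.06, 19.69, 2695 and 2663 in Th2 cells, so replicates 1-2 lay below and replicates 3-4 above all BMDM libraries (log2 -0.02, SE 1.69, DESeq2 adjusted p = 0.992). Ccr2 differed between the Th2 sets by log2 6.78 (edgeR adjusted p = 0.00412) and between the BMDM cohorts by -3.29 (edgeR adjusted p = 0.0227). Cx3cr1, the fractalkine receptor of monocytes, also divided the cohorts, at 741.8, 600.8, 47.68 and 46.64, and was still higher in every BMDM library than in Th2 cells (10.57, 4.219, 2.702 and 2.389).

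Phagocytic and scavenger receptor genes followed the same course, with 16 of 17 tested higher in BMDMs and 15 holding (median log2 -10.82). The scavenger receptor gene Msr1 was at 17950, 14890, 19190 and 17290 and the C-type lectin gene Clec4d at 8116, 14230, 11810 and 11760, each with 0 counts in Th2 cells and at least 33700-fold and 22300-fold higher. Marco, another scavenger receptor gene, was at 6298, 13420, 3229 and 3949, at least 13100-fold higher. Scarb1, a lipoprotein receptor gene, did not pass the test (log2 0.45).

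Of 15 complement genes tested, 14 were higher in BMDMs and 13 held (median log2 -8.13). The 3 chains of C1q, encoded side by side by C1qa, C1qc and C1qb (chr4:136451832-136454718, chr4:136445719-136448980 and chr4:136436044-136442102), were at 0 in all Th2 libraries. C1qb was at 30110, 33660, 22030 and 24470 in BMDMs, at least 53600-fold higher, and C1qa and C1qc were at least 30300-fold and 35100-fold higher.

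All 30 lysosomal genes tested were higher in BMDMs and all held, with log2 differences from -1.43 to -9.27 and a median of -3.85. Summed, they took 72201 to 95678 CPM of the BMDM libraries and 2799 to 3575 of the Th2 libraries. Cathepsin genes spanned most of that range. Ctsh was at 4968, 6903, 7043 and 7210 against 18.49, 11.25, 4.323 and 7.166, and Ctss, the cathepsin that trims the MHC class II invariant chain, at 122400, 138000, 140900 and 141300 against 496.6, 601.9, 792.1 and 766 (217-fold). The housekeeping mannosidase gene Man2b1 differed least, at 8511, 5358, 7274 and 7324 against 2289, 2477, 3036 and 3134.

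Of 22 Toll-like receptor and signalling genes, 18 were higher in BMDMs and 15 held (median log2 -4.14). Tlr13, a sensor of bacterial RNA, was at 13330, 6989, 11480 and 11670 against a single count in Th2 cells, whereas Myd88, the shared adaptor, was at 2198, 2627, 1657 and 1635 against 935.1, 1146, 909.9 and 943.6 (log2 -1, DESeq2 adjusted p = 0.000274). Tlr4, the endotoxin receptor, was at 2452, 1054, 2533 and 2546 against 6.604, 14.06, 18.91 and 17.92 (165-fold). Tlr1 did not pass the test.

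The MHC class II list was divided. Of 13 genes tested, 8 were higher in BMDMs and 4 in Th2 cells, and all 12 held. Over all genes, 25.9% and 29.1% were called in these directions (16.0% and 18.2% held). Th2 replicates 1-2 against the Tdg cohort alone gave 8 and 2, with H2-Ob and H2-DMb2 not called. H2-DMb2 also lost its call without Th2 replicate 1 and without Th2 replicate 2. H2-Aa, an antigen-presenting chain, was at 2719, 3829, 4972 and 7817 against 1.321, 1.406, 5.403 and 2.389, and Cd74, the invariant chain, at 7761, 19590, 19420 and 26190 against 130.8, 87.19, 116.2 and 129.8 (160-fold). H2-Oa, of the H2-O inhibitor of peptide loading, went the other way at 198.1, 215.2, 254.5 and 276.3 in Th2 cells against 3.911, 9.196, 2.699 and 0.6478. H2-DMa was 3.57-fold higher in Th2 cells while H2-DMb1, its partner, was 7.72-fold higher in BMDMs.

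**Figure D2:**
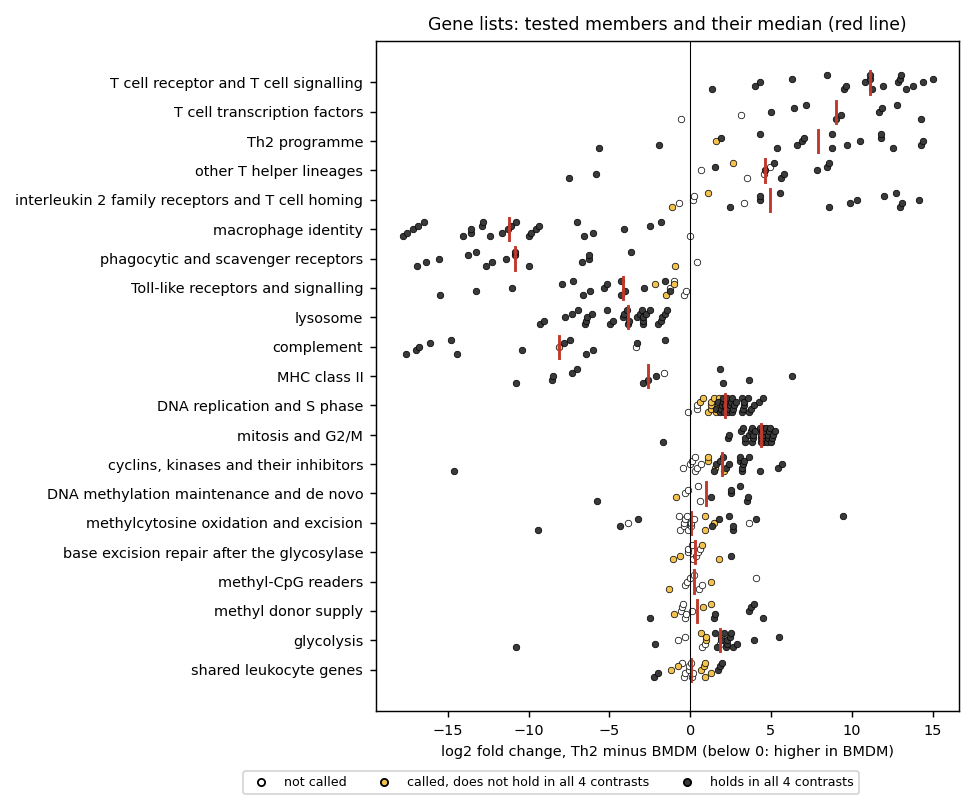
Log2 differences (Th2 over BMDM) of the tested members of 21 gene lists, 1 point per gene, with the list median as a red line (white, not called; yellow, called but not holding; dark, holding in all 4 contrasts). The medians of the T cell lists lie right of 0 and those of the macrophage lists left of 0, with some single genes on the other side. Mitosis and replication genes have medians of 4.40 and 2.17, with Pttg1 and Pcna left of 0. The DNA methylation lists have medians of 0.96 and 0.07.

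Proliferation genes were higher in Th2 cells as a group. Of 34 tested genes of mitosis and the G2/M phase, 33 were higher in Th2 cells and 1 in BMDMs, all 34 held, and the median log2 difference was 4.40. Mki67, whose product Ki-67 marks cycling cells, was at 9583, 8906, 12040 and 11900 in Th2 replicates 1 to 4 and at 628.3, 361.7, 150.2 and 151.6 in BMDMs, a 31.4-fold difference (log2 4.99, SE 0.50, DESeq2 adjusted p = 2.84e-22). Top2a, the topoisomerase that untangles sister chromatids, was at 11530, 11130, 13380 and 12900 against 1418, 346.4, 135.9 and 173.6 (23-fold). Both genes varied little among the Th2 libraries, and among BMDMs they were highest in the first Tdg cohort library and lowest in the Tet cohort.

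Cdc20, the activator of the anaphase-promoting complex, showed the largest difference of the list at 1411, 1463, 1359 and 1397 against 88.65, 12.26, 22.49 and 22.67 (38.8-fold). The mitotic cyclin genes Ccnb1 and Ccnb2 were at 1578, 1821, 1330 and 1351 and 1297, 1374, 1337 and 1407 in Th2 cells. In BMDMs they were at 152.5, 95.03, 23.39 and 31.74 and 105.6, 18.39, 17.09 and 14.25. Plk1, a kinase that drives mitotic entry, was at 1162, 1086, 1143 and 1153 against 121.2, 6.131, 8.097 and 11.66. The exception was Pttg1, whose product securin holds back separase, at 215.3, 173, 222.1 and 228.5 in Th2 cells and 478.4, 1150, 493 and 581 in BMDMs. It was highest in the second Tdg cohort library, which reads short genes high, and was above all Th2 libraries in the other 3 as well. The part of gene length in these values was not tested.

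The promoters of 4 of these mitotic genes are shown because they carry CCAAT, a word that mitotic promoters are known for, or TTTGAA. Each line gives the 120 bases before the RefSeq start (build GRCm38.p6, 5′ to 3′ on the gene's strand), with CCAAT, its reverse complement ATTGG and TTTGAA in capitals.
Cdc20, chr4:118437344-118437463, minus strand: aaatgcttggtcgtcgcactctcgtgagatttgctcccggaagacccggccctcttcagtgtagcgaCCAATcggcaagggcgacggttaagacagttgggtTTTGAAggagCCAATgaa
Ccnb1, chr13:100786487-100786606, minus strand: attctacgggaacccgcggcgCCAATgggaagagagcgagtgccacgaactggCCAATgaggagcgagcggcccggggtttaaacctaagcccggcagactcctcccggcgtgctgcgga
Ccnb2, chr9:70421555-70421674, minus strand: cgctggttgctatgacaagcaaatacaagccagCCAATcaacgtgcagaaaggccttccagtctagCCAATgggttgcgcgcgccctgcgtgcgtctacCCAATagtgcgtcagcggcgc
Plk1, chr7:122159315-122159434, plus strand: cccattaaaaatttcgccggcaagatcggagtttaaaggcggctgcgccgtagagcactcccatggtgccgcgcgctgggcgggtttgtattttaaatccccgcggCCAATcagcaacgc

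Searched on both strands in the 250 bases before the start, CCAAT (the letters bound by the factor NF-Y) was found at 21 of the 28 mitosis genes with a promoter entry (75.0%), against 40.1% of 10208 tested genes with an entry. TTTGAA, the core of the cell cycle homology region, was found at 10 of 28 (35.7%) against 12.9%. The E2F words TTTGGCGC and TTTCCCGC were found at 0 of the 28 mitosis genes and at 6 of 35 DNA replication genes (17.1%), against 2.8% of tested genes. A match describes the letters only. The PU.1 word GAGGAAGT was in 0 of 19 macrophage identity promoters and 3.11% of tested ones, and the GATA word AGATAA in 4 of 15 Th2 programme promoters (26.7%) and 7.51%.

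DNA replication genes had a smaller median difference than mitotic genes. Of 45 tested, 42 were higher in Th2 cells, none was higher in BMDMs, and 31 held, with a median log2 difference of 2.17. With Th2 replicates 1 and 2 left out, 26 were called. Subunits of the MCM helicase were among those that held. Mcm2 was at 2974, 3306, 1838 and 1876 against 960.8, 582.4, 237.5 and 248.1 (5.35-fold) and Mcm7 at 3826, 3939, 2235 and 2288 against 848.7, 383.2, 78.27 and 104.9 (9.45-fold, log2 3.25, SE 0.69, DESeq2 adjusted p = 1.01e-05). Rrm2, the S-phase subunit of ribonucleotide reductase, was at 4818, 5000, 2887 and 2859 against 548.8, 125.7, 17.99 and 66.07. Pcna, the sliding clamp on which replication and maintenance methylation both run, was an exception. It was at 5725, 6246, 3605 and 3558 in Th2 cells and 6942, 6863, 4166 and 4881 in BMDMs, and the types overlapped (log2 -0.13, SE 0.31, DESeq2 adjusted p = 0.737). Its direction turned to higher in Th2 cells under scaling by total counts.

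**Figure D3:**
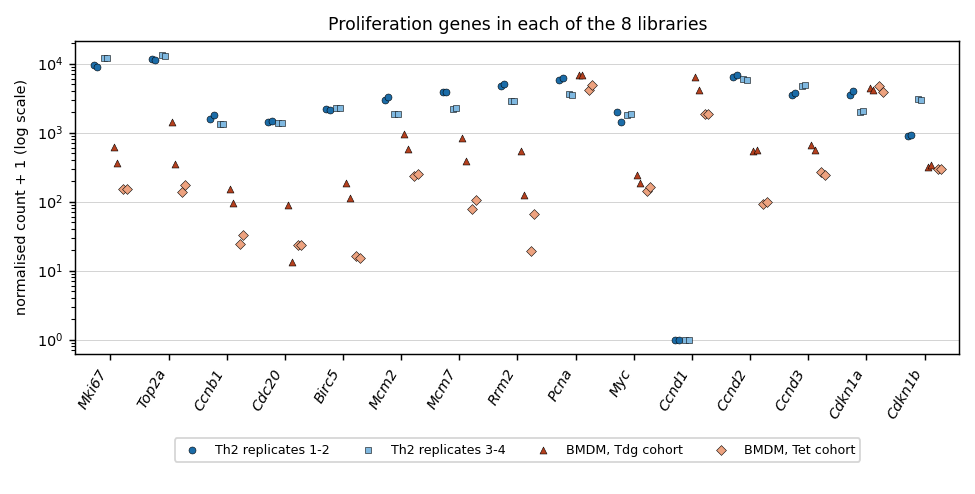
Normalised counts plus 1 (log axis) of proliferation genes in the 4 Th2 and 4 BMDM libraries, 1 point per library. For Mki67 the Th2 libraries sit between 8906 and 12040 and the BMDM libraries between 150.2 and 628.3, whereas for Pcna the points of both cell types overlap.

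The D-type cyclin genes went in different directions. Ccnd1 was absent from Th2 cells and at 6349, 4166, 1867 and 1840 in BMDMs, at least 6910-fold higher. Ccnd2 was higher in Th2 cells at 6379, 6807, 5903 and 5825 against 544.9, 567.1, 92.67 and 97.81 (19.5-fold), as was Ccnd3 at 3481, 3718, 4720 and 4950 against 662.2, 557.9, 265.4 and 241.6. Over the list of cyclins, kinases and their inhibitors, 20 of 28 tested were higher in Th2 cells (16 held) and Ccnd1 alone was higher in BMDMs. Of all genes, 29.1% were higher in Th2 cells (18.2% held) and 25.9% in BMDMs. The inhibitor gene Cdkn1b (p27) was higher in Th2 cells at 890.2, 936.6, 3030 and 2972 against 314.2, 340.3, 296 and 296.7, and higher in replicates 3-4 than in replicates 1-2 (log2 1.72, edgeR adjusted p = 0.0267). Cdkn1a (p21) did not pass the test, at 3516, 4077, 1992 and 2032 and 4508, 4184, 4810 and 3865. Myc, a driver of growth, was at 1963, 1409, 1814 and 1848 against 246.4, 183.9, 143.9 and 161.3 (log2 3.25).

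The BMDM cohorts were not alike in these genes. DESeq2 called 5.22% of 11573 genes between the cohorts, 604 in all, a count that ran from 91 without the second Tet cohort library to 4183 without the first Tdg cohort library, and edgeR called 39. Of the replication genes it called 27 of 45, and of the mitosis genes 22 of 35, all lower in the Tet cohort. edgeR called 3 and 2 of them, Cdc6, Dscc1, Birc5 and Ube2c among these. Cdc6, which loads the MCM helicase, was at 187.7, 134.9, 21.59 and 11.01 in the 4 BMDM libraries and at 903.4, 966.2, 761.9 and 723 in Th2 cells. The summed level of the mitosis list was 190 to 651 CPM in BMDMs and 5828 to 7638 in Th2 cells, so that every BMDM library lay below every Th2 library. Granulocyte precursor markers were also highest in the first Tdg cohort library, and their part in the proliferation values was not tested.

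The genes for DNA methylation were divided. Of 12 tested genes for maintenance and de novo methylation, 6 were higher in Th2 cells and all 6 held, 2 were higher in BMDMs and 1 of these held, and 4 did not pass the test (median log2 0.96), beside 29.1% and 25.9% of all genes called in these directions. Dnmt1, the maintenance methyltransferase (chr9:20711650-20757317), was at 4703, 4063, 4652 and 4541 in Th2 cells and 2044, 1438, 1893 and 2005 in BMDMs. Its means were 4454 ± 343 (SD, n = 3) and 1845 ± 279 (SD, n = 4), a 2.41-fold difference (log2 1.28, SE 0.21, DESeq2 adjusted p = 5.79e-09). Uhrf1, which brings DNMT1 to half-methylated sites (chr17:56442744-56462909), was at 2763, 3038, 2276 and 2270 against 649.2, 168.6, 63.88 and 58.3, an 11.5-fold difference (log2 3.53, SE 0.72, DESeq2 adjusted p = 3.5e-06). Dnmt1 varied little within BMDMs and by 0.16 on the log2 scale between cohorts. Uhrf1 varied 11.1-fold between the highest and the lowest BMDM library (log2 -2.76 between cohorts, called by DESeq2 with adjusted p = 5.22e-05 and not by edgeR with 0.141).

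The start regions of Uhrf1 and Mcm7 are shown for comparison with the mitotic genes above, in the same way and for the first RefSeq start listed of each.
Uhrf1, chr17:56303217-56303336, plus strand: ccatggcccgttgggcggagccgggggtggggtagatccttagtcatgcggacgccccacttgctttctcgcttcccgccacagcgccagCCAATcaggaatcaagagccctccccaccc
Mcm7, chr5:138171884-138172003, minus strand: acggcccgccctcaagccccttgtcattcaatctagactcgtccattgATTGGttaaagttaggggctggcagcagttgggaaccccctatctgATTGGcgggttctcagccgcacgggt

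Across the maintenance and de novo list, CCAAT was found at 4 of 12 genes (33.3%), near the 40.1% of all tested genes with an entry. Across the replication list it was found at 23 of 35 (65.7%).

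The remodelling factor gene Hells and its partner gene Cdca7 went with Uhrf1. Hells was at 1561, 1693, 1136 and 1125 against 396.3, 125.7, 100.8 and 77.08 (8.35-fold) and Cdca7 at 1153, 1416, 873.2 and 855.6 against 208.6, 95.03, 41.39 and 45.34 (11.7-fold). Lig1, the ligase that joins Okazaki fragments and also recruits UHRF1, was at 2517, 2505, 1708 and 1740 against 730, 527.2, 193.4 and 150.3 (5.62-fold). Uhrf2, Usp7 and Ehmt2, other partners of this machinery, did not pass the test, with log2 values of -0.33, 0.47 and 0.64.

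The de novo methyltransferase genes went in opposite directions. Dnmt3a was at 1055, 936.6, 1424 and 1455 in Th2 cells and 1603, 1619, 2384 and 2703 in BMDMs. It was 1.82-fold higher in BMDMs without holding (log2 -0.85, SE 0.30, DESeq2 adjusted p = 0.00975), since the 4 contrasts ran from -1.35 to -0.15. The call was lost in 7 of 21 other settings, with a DESeq2 adjusted p of 0.178 under scaling by total counts and of 0.0705, 0.0826 and 0.0577 without Th2 replicate 1, Th2 replicate 2 and the second Tet cohort library. Dnmt3b was at 158.5, 168.8, 108.1 and 103.1 against 26.07, 30.65, 22.49 and 22.67 and was higher in Th2 cells (5.66-fold, log2 2.54, SE 0.36, DESeq2 adjusted p = 1.89e-11). Dnmt3l, the cofactor without catalytic activity, was low at 16.95, 49.05, 2.699 and 9.716 in BMDMs and had 2 counts in all Th2 libraries. Per kilobase of exon, the mean level in Th2 cells was 846 for Dnmt1, 68.7 for Dnmt3a and 28.3 for Dnmt3b, and in BMDMs 351, 125 and 4.99. Dnmt1 was thus the most read of the 3 in both cell types on this scale.

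**Figure D4:**
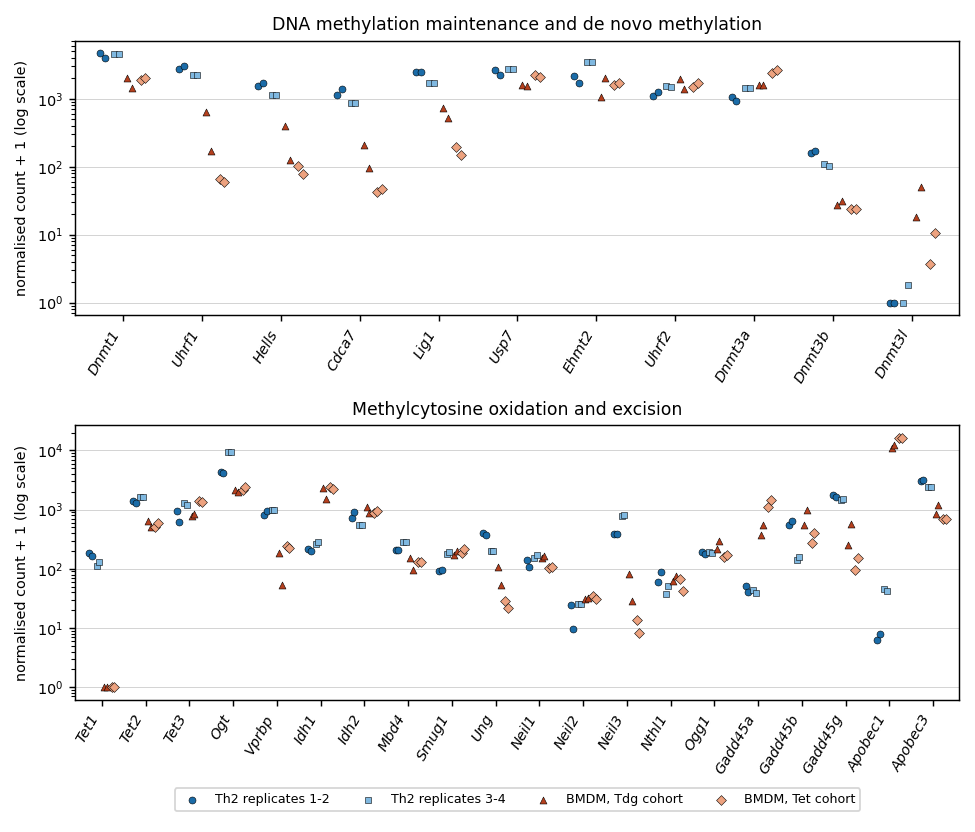
Normalised counts plus 1 (log axis) of genes of the DNA methylation and demethylation machinery in the 4 Th2 and 4 BMDM libraries, 1 point per library. The Th2 points for Dnmt1, Uhrf1, Dnmt3b and Tet2 lie above all BMDM points, those for Tet3 overlap, and Tet1 was read in Th2 cells at 111.8 to 182.3 and in no BMDM library.

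The 3 TET genes each had a pattern of its own. Tet1 (chr10:62267318-62361866) was at 182.3, 164.5, 111.8 and 129.8 in Th2 cells and 0 in every BMDM library, at least 195-fold higher (DESeq2 adjusted p = 7.49e-17). Tet2 was at 1392, 1270, 1653 and 1631 against 634.9, 515, 506.5 and 600.5, a 2.54-fold difference without overlap (log2 1.35, SE 0.21, DESeq2 adjusted p = 5.95e-10). Tet3 was at 958.9, 623, 1267 and 1215 and 766.5, 833.8, 1384 and 1321 and did not pass the test (log2 -0.19, SE 0.35, DESeq2 adjusted p = 0.67). Per kilobase of exon, Th2 cells had means of 10.6 for Tet1, 156 for Tet2 and 84.9 for Tet3, and BMDMs 0, 61.3 and 97.1. The order of Tet2 and Tet3 was therefore opposite in the 2 cell types, which was not tested.

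Over the whole list of oxidation, excision and related genes, 10 of 25 tested were higher in Th2 cells (7 held) and 3 in BMDMs (all held). The median log2 difference was 0.07, near the 0.13 of all genes. Of all genes tested, 29.1% were called higher in Th2 cells (18.2% held) and 25.9% in BMDMs (16.0% held). Tdg was at 9.245, 2.813, 1.621 and 2.787 and 0, 3.065, 0 and 0, a level too low to compare. It has near-identical copies, and reads that fit several places were not counted. The uracil glycosylase gene Ung was 6.15-fold and the glycosylase gene Neil3 16.5-fold higher in Th2 cells. Both are genes of cycling cells, and in BMDMs they were at 108.2, 52.11, 27.89 and 20.73 and 79.52, 27.59, 12.6 and 7.125, highest in the first Tdg cohort library. Mbd4, another thymine glycosylase gene, was at 210, 208.1, 278.8 and 286.3 against 149.9, 95.03, 128.7 and 130.2 (log2 0.89, DESeq2 adjusted p = 0.00313) and did not hold. Smug1, Neil1, Neil2, Nthl1 and Ogg1, which code for other glycosylases, did not pass the test, with log2 values from -0.66 to 0.07.

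Genes that supply or regulate the TET reaction were also divided. Idh1, an isocitrate dehydrogenase that makes the cosubstrate 2-oxoglutarate in the cytosol, was at 2305, 1508, 2447 and 2232 in BMDMs against 217.9, 196.9, 256.7 and 277.1 (9.34-fold, log2 -3.21, SE 0.26, DESeq2 adjusted p = 5.87e-33). Its mitochondrial relative Idh2 did not pass the test (log2 -0.38). Ogt, whose product binds TET proteins, was at 4377, 4083, 9561 and 9487 against 2177, 2017, 2130 and 2421 (log2 1.46, SE 0.34, DESeq2 adjusted p = 5.61e-05). It did not hold, since the contrasts ran from 0.90 to 2.19. Vprbp, a subunit of a ubiquitin ligase that modifies TETs, was at 820.2, 957.7, 986.1 and 993.3 against 182.5, 52.11, 245.6 and 219.6 (5.27-fold).

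The GADD45 genes, stress genes linked to demethylation, each differed in another way. Gadd45a was at 367.6, 539.5, 1113 and 1464 in BMDMs against 50.19, 39.38, 42.69 and 38.62 (20.1-fold higher), Gadd45g was 6.22-fold higher in Th2 cells, and Gadd45b did not pass the test (log2 -0.30). Of the cytidine deaminases, Apobec1 was almost confined to BMDMs at 11080, 12350, 16030 and 16310 against 5.283, 7.032, 43.77 and 41.8, and Apobec3 was 3.35-fold higher in Th2 cells at 3027, 3170, 2402 and 2393.

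Base excision repair genes and the readers of methyl-CpG were called in both directions. Of 12 repair genes that act after the glycosylase, 3 were higher in Th2 cells and 2 in BMDMs, and of these only Lig1 held, beside 29.1% and 25.9% over all genes. Under scaling by total counts these became 6 and 1. Polb, the gap-filling polymerase, was at 500.6, 867.5, 475.9 and 464.4 in BMDMs against 293.2, 236.3, 268.5 and 294.2 (log2 -1.07, DESeq2 adjusted p = 0.00118). Of 9 readers, 1 was called in each direction and none held. Total counts gave 4 higher in Th2 cells and 1 in BMDMs, and leaving out the second Tdg cohort library gave 3 and 2. Mbd2, a methyl-CpG binding protein of repressive complexes, was at 2179, 2323, 2292 and 2324 in Th2 cells and 2134, 2262, 2339 and 2268 in BMDMs (log2 0.02, SE 0.15, DESeq2 adjusted p = 0.907).

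Of 16 tested enzymes that supply methyl groups, 8 were higher in Th2 cells (6 held) and 2 in BMDMs (1 held), against 29.1% and 25.9% of all genes, and the median log2 difference was 0.45. These counts became 7 and 5 without the second Tdg cohort library and 7 and 4 with TMM factors. Ahcy, which clears the by-product that inhibits methyltransferases, was at 2196, 2492, 1759 and 1847 against 242.5, 61.31, 136.8 and 125.7 (15.3-fold). Of the serine hydroxymethyltransferase genes of folate metabolism, Shmt1 was at 801.7, 843.8, 258.8 and 287.1 against 63.88, 6.131, 18.89 and 22.67 and Shmt2 was 12.2-fold higher in Th2 cells. Mat2a, the S-adenosylmethionine synthetase, was at 43.58, 5.625, 7.024 and 3.981 in Th2 cells and 40.41, 3.065, 54.88 and 2.591 in BMDMs, did not pass the test, and has near-identical copies that make its count uncertain.

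Glycolysis genes were also higher in Th2 cells, with a median log2 difference of 1.86. Of 24 tested, 17 were called there (13 held) and 2 in BMDMs (both held), beside 29.1% and 25.9% of all genes. The glucose transporter gene Slc2a3 was at 8095, 8729, 7989 and 8116 against 331.1, 150.2, 133.2 and 137.3 (44.1-fold), and Pfkp, a phosphofructokinase, at 8397, 9048, 6450 and 6500 against 1537, 1156, 878.1 and 840.1. The hexokinase genes differed in kind: Hk3 was at 5619, 5941, 5549 and 6678 in BMDMs and 0, 4.219, 3.242 and 4.778 in Th2 cells, while Hk1 was 2.95-fold higher in Th2 cells. Between the Th2 sets, DESeq2 called 8 of 23 tested genes lower in replicates 3-4 and 1, Pfkfb4, higher. Over all genes it called 9.88% in either direction, and edgeR called none of the 23. Gapdh and Eno1, which have many processed copies, are uncertain.

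Leukocyte genes common to both lineages went in both directions. Of 20 tested, 8 were higher in Th2 cells and 4 in BMDMs, against 29.1% and 25.9% of all genes, 3 and 2 of these held, and the median log2 difference was 0.08. Th2 replicates 1-2 against the Tdg cohort alone gave 3 and 4. Cd48 was at 2770, 2938, 3124 and 3075 in Th2 cells and 2902, 3139, 2668 and 2871 in BMDMs (log2 0.03, SE 0.16). The adhesion receptor gene Cd44 held in the direction of BMDMs, at 6081, 5147, 4397 and 4584 against 723.8, 804.4, 1676 and 1590, and Ikzf1, which codes for the lymphoid factor Ikaros, in that of Th2 cells, at 3929, 3972, 6795 and 6697 against 1557, 892, 1279 and 1386.

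**Figure D5:**
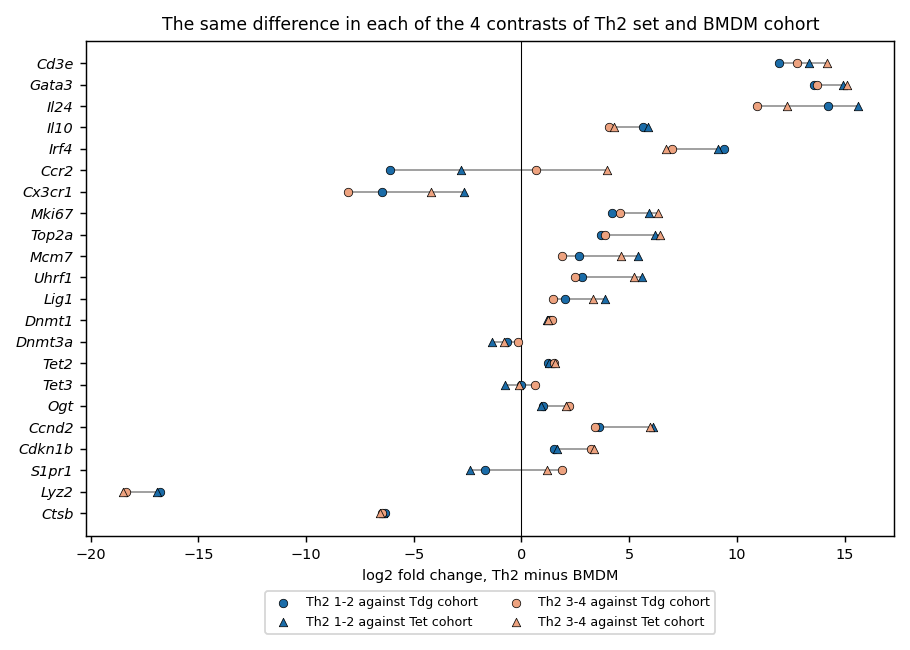
Log2 differences of 22 genes in the 4 contrasts of Th2 replicates 1-2 or 3-4 with the Tdg or Tet cohort of BMDMs, with fitted values that depend on the fit and are no bound where a gene is at 0 in a cell type. Cd3e, Mki67 and Dnmt1 keep their side in all 4, whereas Ccr2 runs from -6.10 to 3.96, S1pr1 from -2.37 to 1.86 and Tet3 from -0.77 to 0.64.

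The 4 contrasts show which genes depended on the choice of libraries. Of the lineage and proliferation genes drawn, Mki67 ran from log2 4.22 to 6.32 and Uhrf1 from 2.47 to 5.58, with the Tet cohort giving the larger values. Dnmt1 stayed between 1.18 and 1.41, and Tet2 between 1.21 and 1.58. Leaving out the second Tdg cohort library, which stands apart in depth and gene length, gave 43 of 45 replication genes and 34 of 35 mitosis genes higher in Th2 cells, and left the maintenance and de novo list at 6 higher in Th2 cells and 2 higher in BMDMs.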

How the data were processed

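Polyadenylated RNA of WT Th2 cells (4 libraries) and of unstimulated WT BMDMs (4 libraries) had been sequenced by the authors as directional paired-end libraries. The deposited files hold raw counts per gene symbol (23420 symbols), which the authors made with HISAT2 on mm9 and HTSeq. Tool versions, the annotation counted against and whether strand was used are not given in the sources used here, so overlapping and antisense genes are uncertain. DESeq2 1.30.0 is the version in the submitters' processing notes. Of all read pairs, 32.8 to 51.1% were in tallies that name no gene and were left out, which left 4982950 to 26657729 counts per library.

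The counts were fitted here with DESeq2 1.42.0 in R 4.3.3 (Wald test, median-of-ratios size factors, Benjamini-Hochberg adjusted p under 0.05), with cell type as the only term. A second fit had 4 sets (Th2 replicates 1-2, Th2 replicates 3-4, BMDM Tdg cohort, BMDM Tet cohort). Th2 replicates 3 and 4 were summed, so that the contrast between Th2 sets was 1 sample against 2 and assumes that the summed sample varied like the others. Values per library are normalised counts (counts divided by the size factor, for all 8 libraries), and 136 genes were named by rule: the markers, all members of both methylation lists, the 3 largest differences that held in each direction in the other lists, 10 defining proliferation genes, and the 10 most read genes with at least a 32-fold difference on each side. Other genes with values (among them Runx1, Ccr2, Ccr7, S1pr1, Il5, Il10, Il13, Irf4, Mbd2, Polb, Shmt2, Cdc6, Plk1 and Mcm7) were named after their values were seen. The comparison, its members and the gene lists were chosen with earlier results of these data known. A fold against a cell type with no count used a floor of 3 counts over that group, and this floor and the counting interval cover counting error only. Fits were tested on simulated data.

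Alternatives were edgeR 4.0.16 (quasi-likelihood), other scalings, a count filter, a replicate block, single cohorts and leaving out libraries. Those that left out both libraries of a Th2 set, other scalings of the set and cohort differences and of the held differences, and the counts of list members per setting, were chosen after seeing the data. Coordinates are mm9 from GENCODE M1 (21075 symbols matched) and promoters are from RefSeq (GRCm38.p6). Replicate numbers were not used to pair samples in the main fit. Some genes of the lists are not reported here by name.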

Additional observations from a re-analysis of the deposited data

Results flagged for a closer look

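In 104 named genes with enough counts, the 4 BMDM libraries were searched for a value far from the other 3, of which chance gives about 1 in 20. This held for 13 genes, 10 of them in the first Tdg cohort library. Its values were the highest for the cell cycle genes Orc1 (65.18 normalised counts), Cdc45 (156.4), Cdc20 (88.65), Ccnb2 (105.6), Top2a (1418) and Hells (396.3) and for Slc2a3 (331.1) and Ets1 (138.2), and the lowest for Bcl6 (1386) and Ctsh (4968). The second Tdg cohort library had the highest Pttg1 (1150) and Cyba (19200) and the first Tet cohort library the highest Scd2 (411.2).

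Between the BMDM cohorts, DESeq2 called 29 of the 136 named genes, beside 5.22% of all genes tested. Of these 29, edgeR tested 28 and called Ccnd2 and Ube2c. Log2 differences are Tet over Tdg. Cell cycle genes were lower in the Tet cohort: Rrm2 by -3.00, Orc1 by -2.28, Ccnb2 by -2.06, Ube2c by -2.88, Mki67 by -1.73, Top2a by -2.51, Mcm2 by -1.67, Hmgb2 by -1.42, Ccnd1 by -1.50, Ccnd2 by -2.54 and Ccnd3 by -1.27. Replication and repair genes that also serve methylation or excision were lower too, with Uhrf1 at -2.76, Hells at -1.57, Cdca7 at -1.84, Pcna at -0.61, Lig1 at -1.88, Ung at -1.78 and Neil3 at -2.54. Lower as well were Lpl (-1.62), Marco (-1.46), Gadd45g (-1.71), Aldoc (-1.64) and Coro1a (-1.26). Higher in the Tet cohort were Bhlhe41 (1.40), Dnmt3a (0.66), Gadd45a (1.52) and the macrophage genes Psap (0.60), Gpnmb (0.97) and Apoe (0.84).

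Between the Th2 sets, DESeq2 called 18 of the 136 named genes, beside 9.88% of all genes tested. Of these 18, edgeR tested 17 and called 6 (Apobec1, Batf3, Bhlhe41, Cdkn1b, Ctsl and Il24). Lower in replicates 3-4 than in replicates 1-2 on the log2 scale were the cytokine and activation genes Il4 (-1.20), Il24 (-3.27), Il21 (-4.16), Il2ra (-1.21) and Icos (-1.32), and Bhlhe41 (-2.54), Batf3 (-3.79), Ctsl (-1.40), Pcna (-0.74), Gadd45b (-1.98) and Cdkn1a (-0.91). Higher in replicates 3-4 were Cdkn1b (1.72), Bcl6 (1.47), Cd44 (1.09), Ogt (1.17), Apobec1 (2.80), Pfkfb4 (1.20) and Itgb3 (0.96).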

How the results depend on the processing

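The number of genes called between Th2 cells and BMDMs, 7659, ran from 5371 with Th2 replicates 1 and 2 left out together to 9136 with replicates 1-2 against the Tet cohort only, was 6751 with edgeR and 7604 with TMM factors, and ran from 6527 to 8438 over libraries left out singly. The 4776 differences that held became 3066 with a minimum log2 difference of 2 and 7039 with 0, and 4495 to 5159 over libraries left out singly. The difference between Th2 sets depended on tool and library, with 315 genes called by edgeR against 1174 by DESeq2 and a range of 233 to 3608 (311 and 233 without Th2 replicates 1 and 2, 3356 and 3608 without the Tdg cohort libraries, 440 and 429 without the Tet cohort libraries). Between cohorts edgeR called 39 against 604, and the range was 91 to 4183 (217 and 213 without Th2 replicates 1 and 2, 4183 and 1569 without the Tdg cohort libraries, 103 and 91 without the Tet cohort libraries). The cause was not tested. Scaling by TMM moved the median of all genes by -0.09 and total counts by 0.365 on the log2 scale.

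With the replicate number as a block, 7007 genes were called. Deviations from the group means of libraries with the same number correlated weakly across genes (r of -0.0769 to 0.066). This cannot decide whether the numbers pair samples. The Th2 deviations also carry the gap between the Th2 sets, and the libraries of a BMDM cohort deviate in exactly opposite ways. Many of the named genes were chosen because their difference held, which already required the same direction in all 4 contrasts. Their direction in other settings, drawn from the same libraries, was thus largely fixed by that choice. Of the 118 named genes called by DESeq2, none turned in direction in 21 other settings and edgeR called all 113 that it tested, while 13 lost the call in at least 1 setting, 4 of them (Mycn, H2-Ob, Prf1 and Col1a1) under the block. Dnmt3a lost it in 7 settings, with a DESeq2 adjusted p up to 0.654. Settings that gave no adjusted p for a gene were not counted for it, as for Il21, Mycn and Prf1 with Th2 replicates 1 and 2 left out together. Of the lists, replication had the largest loss by number of genes, from 42 to 26 of 45 called higher in Th2 cells with Th2 replicates 1 and 2 left out. In that setting the other T helper lineages went from 9 of 15 tested to 2 of 8, a larger loss by share.

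The 10 named genes that turned in direction were among those not called by DESeq2 over all libraries. Under total counts, log2 values became 0.04 for Uhrf2, 0.24 for Pcna, 0.18 for Tet3, 0.25 for Ogg1 and 0.08 for Gadd45b. TMM gave -0.01 for Neil1 and -0.03 for Nthl1, which was at -0.06 with Th2 replicates 3 and 4 apart. The block gave 0.08 for Pcna, -0.10 for Neil1, -0.06 for D2hgdh and 0.17 for Gadd45b. Th2 replicates 1-2 against the Tdg cohort gave -0.39 for Neil1 and -0.27 for D2hgdh, and against the Tet cohort 0.34 for Pcna, 0.13 for Ogg1, 1.56 for Cxxc5 and 0.73 for Gadd45b. Replicates 3-4 against the Tdg cohort gave 0.64 for Tet3, 0.02 for Smug1 and -0.55 for Nthl1, and against the Tet cohort -0.26 for Nthl1, 0.22 for Ogg1 and 1.52 for Cxxc5. Leaving out Th2 replicates 3 and 4 gave 0.08 for Pcna, -0.08 for Neil1, -0.07 for D2hgdh and 0.13 for Gadd45b, and leaving out 1 and 2 gave 0.27 for Tet3, 0.01 for Smug1 and -0.34 for Nthl1. Over libraries left out singly, the range was -0.34 to 0.05 for Tet3, -0.05 to 0.23 for Neil1, -0.20 to 0.14 for Nthl1, -0.26 to 0.02 for Ogg1, -0.83 to 0.44 for Cxxc5 and -0.64 to 0.07 for Gadd45b. At the depth of the shallowest library, 3 counts are 6.02e-05% of its assigned counts, which limits statements on genes read in only one cell type.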
